A study of Mus musculus with 13 samples.

Results

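The genes described here are the core of the transforming growth factor beta (TGF-beta) pathway in mouse quadriceps muscle: the ligand genes Tgfb1, Tgfb2 and Tgfb3, the receptor genes Tgfbr1, Tgfbr2 and Tgfbr3, and the Smad genes Smad2, Smad3, Smad4 and Smad7. They were chosen by name, for their place in the pathway, and are 10 of the 24015 genes in the table. Earlier results of these data were known when they were chosen, so counts among them set beside all genes are descriptive. All 10 stood at 1 TPM or more in every one of the 13 libraries, and all 10 were among the 11876 genes tested. TPM is a share of a library's transcripts corrected for transcript length, so levels of different genes can be compared within a library.

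The libraries came from whole quadriceps lysates of C57BL/6 mice and formed 4 groups. Aged mice, labelled as over 24 months, were given the small molecule SW033291 at 5 mg/kg by daily intraperitoneal injection for 4 weeks (3 libraries, batch 2). SW033291 inhibits 15-PGDH, the enzyme that starts the breakdown of prostaglandin E2. Aged mice given vehicle formed a group of 3 libraries in batch 2 and another of 3 libraries in batch 1, and young mice of 3 months given vehicle formed a group of 4 libraries in batch 1. The vehicle, a mixture of ethanol, Cremophor EL and dextrose water, was injected on the same schedule. SW033291 was given in batch 2 only, young mice were present in batch 1 only, and the labels do not say what the batches were. The labels do not say whether each library is a different mouse, so the tests compare groups with the variation among libraries, which may be technical.

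TGF-beta ligands are secreted in a latent complex that must be opened before they can bind. The active ligand binds the type II receptor, which phosphorylates the type I receptor, and this kinase in turn phosphorylates Smad2 and Smad3. Those join Smad4 and enter the nucleus to regulate transcription, while the inhibitory Smad7 is itself induced and blocks the receptors. In skeletal muscle the pathway is known for matrix production by fibroblasts and for restraint of muscle growth and repair, and Smad2 and Smad3 also carry the signals of myostatin and activin. Transcript levels measure neither ligand activation nor Smad phosphorylation. In bulk tissue, fewer cells of a type and less RNA per cell cannot be told apart.

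Some libraries stood apart from the rest. Summed TPM of 8 neutrophil markers was 221 in aged SW033291 replicate 4, 746 in aged vehicle batch 2 replicate 2 and 1717 in aged vehicle batch 1 replicate 4, and at most 13.96 in the other 10 libraries. Those 3 libraries had all 8 markers above 0, and the other libraries had between 1 and 7. Red cell markers summed to 3567 TPM in aged vehicle batch 1 replicate 4 and to 2077 TPM in aged vehicle batch 2 replicate 2, and to at most 672 TPM in the other 11 libraries. Summed TPM of 6 platelet markers was 51.9 in aged vehicle batch 1 replicate 4 and 61.8 in aged vehicle batch 2 replicate 2, and lower in each of the other 11. In aged vehicle batch 1 replicate 4, markers of muscle fibres to 147308 TPM, the lowest fibre sum of the 13 libraries. In the other 12 libraries the fibre sum lay between 175472 and 209622 TPM. All 8 fibre markers were above 0 in all 13 libraries. Sequencing depth is not recorded in TPM and is unknown, so no interval from counting is given.

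RefSeq promoter sequences of build GRCm38.p6, from 250 bases before to 50 bases after the start site, were matched by symbol for 5 of the 10 genes. Those of Tgfb2 and Smad3 are shown because these genes differed most between the aged groups. The promoter of Tgfb2 lies at chr1:186705940-186706239 on the minus strand and that of Smad3 at chr9:63757945-63758244 on the minus strand. Capitals mark CAGAC, the Smad-binding element, and TGACG, a half-site of the cAMP response element, each searched on both strands.
Tgfb2: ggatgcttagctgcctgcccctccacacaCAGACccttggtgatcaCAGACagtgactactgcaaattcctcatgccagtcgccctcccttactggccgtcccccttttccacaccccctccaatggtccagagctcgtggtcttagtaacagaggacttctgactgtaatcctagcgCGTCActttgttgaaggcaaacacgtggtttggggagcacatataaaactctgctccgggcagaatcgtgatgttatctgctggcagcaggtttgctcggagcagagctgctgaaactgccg
Smad3: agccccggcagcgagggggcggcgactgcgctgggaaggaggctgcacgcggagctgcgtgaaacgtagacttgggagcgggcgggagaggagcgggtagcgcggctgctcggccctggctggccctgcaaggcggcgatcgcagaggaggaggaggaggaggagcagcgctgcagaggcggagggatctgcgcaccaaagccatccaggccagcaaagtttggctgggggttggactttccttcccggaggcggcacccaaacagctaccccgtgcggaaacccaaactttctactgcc
The Tgfb2 window held CAGAC at 2 places, with first bases at -221 and -204 from the start site, and the reverse complement CGTCA of the half-site at -72. The Smad3 window held neither word. Of 32851 promoters of the same length, 49.6% held CAGAC or its reverse complement and 20.8% the half-site. GC content was 54.3% for Tgfb2 and 67.7% for Smad3, against a median of 52.7% over all these promoters.

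Among the ligand genes, Tgfb3 was the most abundant in every library. Its share of the summed ligand TPM lay between 62.9% and 76.0%, that of Tgfb2 between 13.8% and 29.3% and that of Tgfb1 between 2.59% and 14.9%. Among the receptor genes, all 3 had medians within a narrow span, 9.04 TPM for the type I receptor Tgfbr1, 11.8 TPM for the type II receptor Tgfbr2 and 7.98 TPM for the co-receptor Tgfbr3, also called betaglycan. Smad3 was the most abundant Smad in 13 of 13 libraries, with a median of 39.9 TPM, followed by the shared partner Smad4 at 19.3 TPM. Smad2 and the inhibitory Smad7 had medians of 2.83 and 2.81 TPM, and their ranges of 2.39 to 4.36 TPM and 1.01 to 3.61 TPM overlapped. Smad3 exceeded Smad2 by a factor of 6.68 to 25.6.

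**Figure D1:**
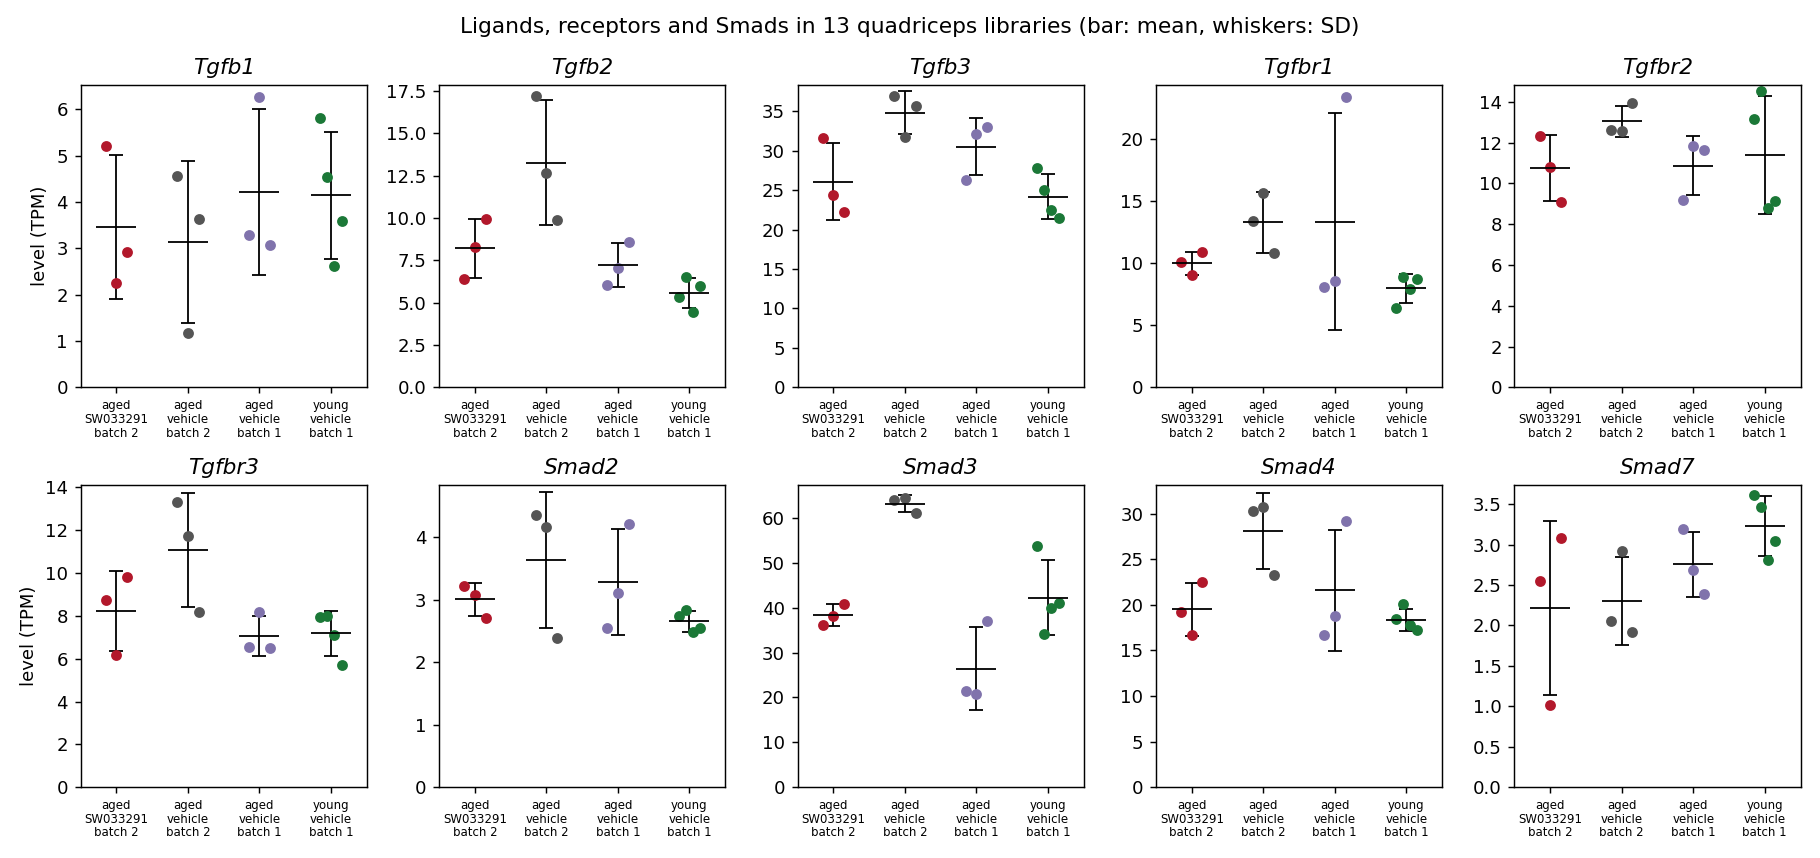
Level in TPM (vertical axis, linear, from 0) of each gene by group, 1 point per library, with the group mean as a bar and the SD as whiskers. Smad3 stood at 61.1 to 64.5 TPM in the aged vehicle libraries of batch 2, above each of the other 10 libraries.

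Aged and young vehicle muscle of batch 1 were compared to ask how transcripts of the pathway differ with age. None of the 10 genes passed an adjusted p of 0.05, where 54 of all 11876 genes did (0.455%; limma with Benjamini-Hochberg adjustment), and 2 of 10 had an unadjusted p under 0.05, against 9.92% of all genes. These were Tgfb3, with a higher mean in aged muscle, and Smad3, with a lower one. None of the 10 had aged and young libraries that did not overlap, against 11.6% of all genes. The median log2 difference was 0.10 for the 10 genes and 0.06 for all genes.

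Tgfb3 had 26.3, 32.1 and 33.0 TPM in the aged libraries, against 27.8, 25.01, 22.5 and 21.5 TPM in the young libraries. Of the aged libraries, 2 lay above all young ones and 1 lay within their range. The log2 difference was 0.32 (SE 0.14, limma adjusted p = 0.468). Tgfb2, the ligand that depends most on betaglycan for binding, averaged 7.23 ± 1.30 TPM in aged muscle (SD, n = 3) and 5.59 ± 0.89 TPM in young muscle (SD, n = 4), a log2 difference of 0.32 (SE 0.20, limma adjusted p = 0.689). Tgfb1, the isoform most studied in fibrosis, averaged 4.21 ± 1.79 TPM in aged and 4.14 ± 1.36 TPM in young muscle, and its difference changed sign with the scaling. Summed TPM of the 3 ligands was 41.9 ± 5.47 in aged muscle and 33.9 ± 4.37 in young muscle, with an exact two-sided permutation p of 0.171, where the smallest these groups allow is 0.0571 (adjusted over 4 such tests, 0.343).

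Tgfbr1 rested on a single library. It had 8.08, 8.55 and 23.4 TPM in the aged libraries, against 6.38, 8.88, 7.89 and 8.72 TPM in the young libraries. Only aged replicate 4, the library high in neutrophil transcripts, lay above the young range. The log2 difference was 0.53 (SE 0.28, limma adjusted p = 0.594) and 0.06 without that library. Tgfbr2 and Tgfbr3 differed by -0.04 and -0.02 on the log2 scale, with 95% intervals of -0.43 to 0.35 and -0.44 to 0.40.

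Smad3 had 21.5, 20.7 and 37.1 TPM in the aged libraries, against 53.9, 34.1, 39.9 and 41.0 TPM in the young libraries. Aged replicates 2 and 3 lay below every young library, and aged replicate 4 lay inside the young range. The log2 difference was -0.69 (SE 0.19, 95% interval -1.09 to -0.29, limma adjusted p = 0.141). Without aged replicate 4 it was -0.95 (limma adjusted p = 0.0105), and 92 of all genes were called there (0.775%). Smad3 passed with no other single library left out, where its adjusted p reached 0.325. Over all 18 alternatives adjusted p lay between 0.0105 and 0.939. The part of neutrophil or red cell transcripts in these values was not tested.

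Ratios within a library do not depend on how libraries are scaled to each other. Smad3 divided by Smad2 was 8.41, 6.68 and 8.81 in the aged libraries of batch 1, against 19.7, 12.1, 16.1 and 16.1 in the young libraries. All 3 aged libraries, replicate 4 included, lay below all 4 young ones. Smad3 made up 45.8% to 50.9% of the summed TPM of the 4 Smads in aged muscle of batch 1, against 56.4% to 68.5% in young muscle. The aged vehicle libraries of batch 2 did not share this: their Smad3 shares were 63.6%, 63.0% and 68.9% and their Smad3 to Smad2 ratios 14.7, 15.5 and 25.6, inside or above the young range. These ratios were looked at after the values were known and carry no test, and a ratio shows unequal change, not which of its parts changed.

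Like Smad3, the genes Smad2, Smad4 and Smad7 overlapped between ages. Smad2 averaged 3.29 ± 0.85 TPM in aged and 2.65 ± 0.16 TPM in young muscle, Smad4 21.6 ± 6.68 TPM and 18.4 ± 1.23 TPM, and Smad7 2.75 ± 0.41 TPM and 3.23 ± 0.37 TPM (SD, n = 3 aged and 4 young). Their limma adjusted p-values were 0.808, 0.819 and 0.883. The ratio of the inhibitor Smad7 to the summed Smad2 and Smad3 was 0.101 ± 0.039 in aged muscle and 0.073 ± 0.014 in young muscle (exact two-sided permutation p = 0.343, adjusted over 4 such tests 0.400).

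The comparison of SW033291 with vehicle in aged muscle of batch 2 asked whether inhibition of 15-PGDH shifted these transcripts. With limma no gene passed an adjusted p of 0.05 (0%), and so none of the 10. At an unadjusted p under 0.05 there were 4 of the 10, Tgfb2, Tgfb3, Smad3 and Smad4, all with lower means in SW033291 muscle, against 1221 of all genes (10.3%). Lower means were common: 9 of 10 genes and 71.1% of all genes had a difference below 0, with a median log2 difference of -0.38 for the 10 and -0.13 for all genes. Median-of-ratios scaling brought the median of all genes close to 0, so differences relative to that median are given as well for the genes described by library. Groups that did not overlap, with SW033291 lower, occurred in 4 of 10 genes (Tgfb3, Tgfbr2, Smad3 and Smad4) and in 15.1% of all genes.

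Smad3 had 36.2, 38.1 and 40.9 TPM in the SW033291 libraries, against 64.1, 64.5 and 61.1 TPM in the vehicle libraries. All 3 treated libraries lay below all 3 vehicle libraries, and the gap between the groups was wider than the spread within either. The log2 difference was -0.71 (SE 0.20, 95% interval -1.13 to -0.28, limma adjusted p = 0.397), a fold of 0.613 on the log2(TPM + 1) scale, and -0.57 relative to the median of all genes. It ranked 95 by p among the 11876 genes. All 14 alternatives kept a negative sign, with values of -0.75 to -0.56 and adjusted p between 0.270 and 0.630.

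In the authors' deposited table of SW033291 against vehicle, Smad3 had a log2 fold change of -0.57 (SE 0.14) with an unadjusted p of 4.55e-05. Its test statistic of -4.08 was the most negative of 16675 genes with a statistic in the authors' deposited table. That p-value is not adjusted for the number of genes, and the authors' deposited table for SW033291 gives no adjusted p. The table comes from the same study's libraries and is not independent of the TPM. The next of the 10 genes in the authors' deposited table was Tgfb2, with -0.49 (SE 0.25, unadjusted p = 0.0478). None of the 10 was in the authors' deposited table for age, which lists 813 genes, as many as 3.39% of the genes in the TPM table. The highest adjusted p in that table was 0.0999, so absence from it says only that a gene was not listed at that level.

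Smad4, which partners all receptor-activated Smads, had 19.3, 16.7 and 22.5 TPM in the SW033291 libraries, against 30.3, 30.7 and 23.2 TPM in the vehicle libraries. The groups did not overlap, but the highest treated and the lowest vehicle library were close. The log2 difference was -0.50 (SE 0.19, limma adjusted p = 0.418), and -0.37 relative to the median of all genes. In the authors' deposited table Smad4 had -0.23 (SE 0.19, unadjusted p = 0.226). Smad2 averaged 3.00 ± 0.26 TPM with SW033291 and 3.64 ± 1.08 TPM with vehicle (SD, n = 3 each), with a 95% interval of -0.63 to 0.26 for the log2 difference. Smad7 averaged 2.21 ± 1.08 TPM with SW033291 and 2.30 ± 0.54 TPM with vehicle, and its difference changed sign with the scaling. Smad7 over summed Smad2 and Smad3 was 0.053 ± 0.025 with SW033291 and 0.034 ± 0.007 with vehicle (exact two-sided permutation p = 0.4, where 0.1 is the smallest these groups allow).

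Among the ligands, Tgfb3 had 31.6, 24.4 and 22.2 TPM with SW033291, against 37.0, 31.7 and 35.7 TPM with vehicle. The groups did not overlap, but the highest treated and the lowest vehicle library were nearly level. The log2 difference was -0.41 (SE 0.15, limma adjusted p = 0.418), and -0.28 relative to the median of all genes. Tgfb2 had 6.43, 8.30 and 9.92 TPM with SW033291, against 17.2, 12.7 and 9.90 TPM with vehicle, with a log2 difference of -0.62 (SE 0.22, limma adjusted p = 0.418), which is -0.48 relative to that median. The highest treated and the lowest vehicle library were level. Tgfb1 averaged 3.46 ± 1.55 TPM with SW033291 and 3.13 ± 1.75 TPM with vehicle, the one gene of the 10 with a positive difference. In the authors' deposited table Tgfb3 had -0.29 (SE 0.19, unadjusted p = 0.119). In the authors' deposited table the mean of normalised counts of Tgfb1 was 14.4, the lowest of the 10, where Smad3 had 503.

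Summed ligand TPM was 43.2, 34.9 and 35.1 with SW033291, against 58.8, 45.6 and 49.2 with vehicle. The groups did not overlap. Means were 37.7 ± 4.76 with SW033291 and 51.2 ± 6.80 with vehicle, a log2 difference of -0.44 with an exact two-sided permutation p of 0.1, the smallest that 3 against 3 allows, and 0.343 adjusted over 4 such tests. With median-of-ratios scaling the difference was -0.29 and p was 0.2.

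The receptors had intervals that included 0. Tgfbr2 had 12.3, 10.8 and 9.11 TPM with SW033291, against 12.6, 12.6 and 13.9 TPM with vehicle. Its groups did not overlap, but the highest treated and the lowest vehicle library were nearly level. The log2 difference of Tgfbr2 was -0.26 (SE 0.19, limma adjusted p = 0.624), and -0.13 relative to the median of all genes. Tgfbr1 averaged 9.98 ± 0.91 TPM with SW033291 and 13.3 ± 2.45 TPM with vehicle, and Tgfbr3 8.23 ± 1.88 TPM and 11.1 ± 2.65 TPM (SD, n = 3 each), with 95% intervals of -1.01 to 0.28 and -0.83 to 0.06. Beside these values, summed TPM of 8 smooth muscle and pericyte markers lay between 125 and 131 in SW033291 muscle and between 139 and 196 in vehicle muscle, with all 8 markers above 0 in each library. Summed TPM of 9 fibro-adipogenic markers lay between 305 and 605 with SW033291 and between 340 and 469 with vehicle. The part of these cell types in the results was not tested.

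**Figure D2:**
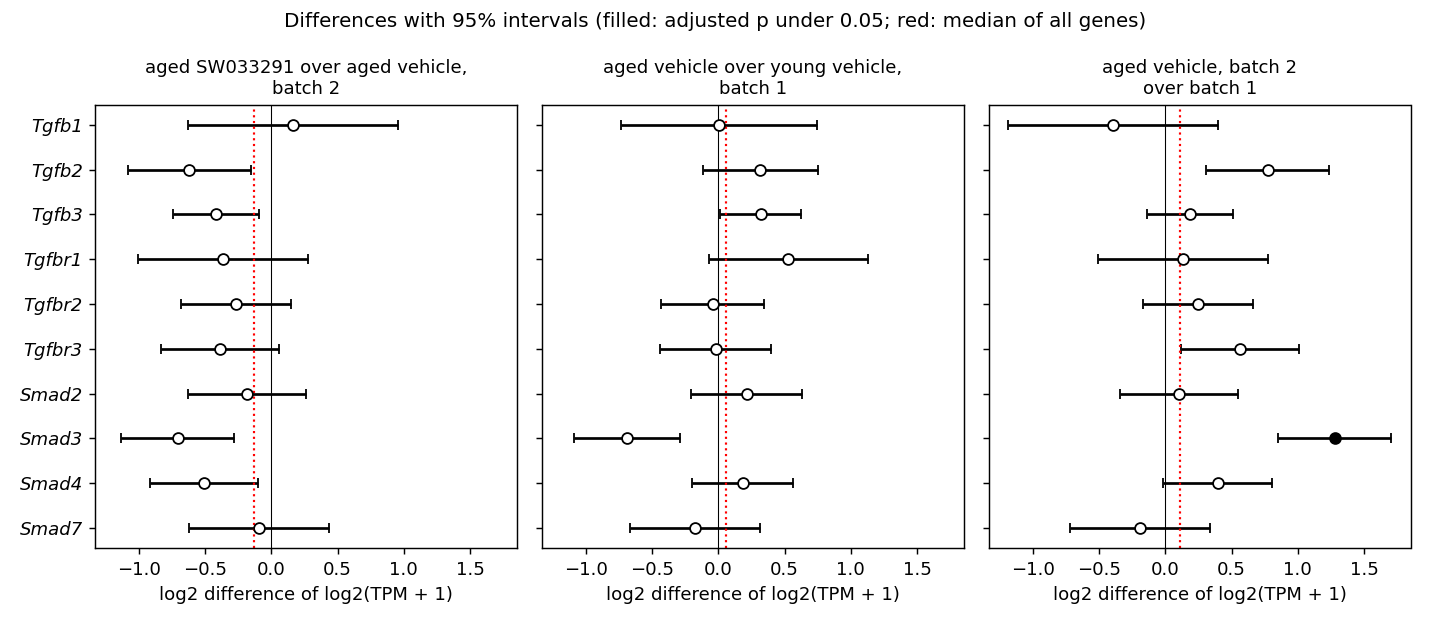
Log2 difference of log2(TPM + 1) with its 95% interval (horizontal axis) for each gene in 3 comparisons, with filled points past an adjusted p of 0.05 and the median of all genes as a red dotted line. Smad3 lay at -0.71 for SW033291 over vehicle, -0.69 for aged over young and 1.28 for batch 2 over batch 1, the single filled point.

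Aged vehicle muscle was present in both batches, which gives the size of a difference between batches at the same age and treatment label. Smad3 had 64.1, 64.5 and 61.1 TPM in batch 2, against 21.5, 20.7 and 37.1 TPM in batch 1. Smad3 was higher by 1.28 on the log2 scale in batch 2 (SE 0.20, limma adjusted p = 0.0105), 2.42-fold, and was the single call among the 10 genes, where 267 of all genes were called (2.25%) and 1.72% were called higher. The call was lost without aged batch 1 replicate 2 (adjusted p = 0.0590), without aged batch 2 replicate 2 (0.0539), without aged batch 2 replicate 3 (0.0525) and in a fit of the 2 groups alone (0.199), while the difference stayed between 1.13 and 1.56 in all 15 alternatives.

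Groups that did not overlap, with batch 2 higher, occurred in 4 of 10 genes, Tgfb2, Tgfbr2, Tgfbr3 and Smad3, and in 11.9% of all genes. For Tgfbr3 the lowest batch 2 library and the highest batch 1 library were level, at 8.17 and 8.16 TPM. Tgfb2 had 17.2, 12.7 and 9.90 TPM in batch 2, against 6.02, 7.07 and 8.60 TPM in batch 1 (log2 difference 0.77, SE 0.22, limma adjusted p = 0.0777), and it passed without aged batch 1 replicate 4 (adjusted p = 0.0235) or without aged batch 2 replicate 8 (0.0359). Without aged batch 1 replicate 4, Tgfbr1 (0.60, adjusted p = 0.0398) and Smad4 (0.62, adjusted p = 0.0200) also passed. Many more genes were called in these settings, 478 of all genes (4.02%) when replicate 8 of the aged batch 2 group was left out and 1643 (13.8%) when replicate 4 of the aged batch 1 group was. The median of all genes was 0.11 here. The balance of calls depended on the scaling, with 204 higher and 63 lower as TPM and 46 higher and 98 lower after median-of-ratios scaling, where Smad3 was still called at 1.14.

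The batch 2 vehicle libraries serve as the controls of SW033291 and as the upper side of the batch comparison, so these comparisons share samples. Aged SW033291 muscle of batch 2 averaged 38.4 ± 2.37 TPM of Smad3, aged vehicle muscle of batch 2 63.2 ± 1.85 TPM, aged vehicle muscle of batch 1 26.4 ± 9.25 TPM and young vehicle muscle of batch 1 42.2 ± 8.33 TPM. In that order of groups, the highest was the batch 2 vehicle group, which overlapped no other group, and the SW033291 group lay inside the range of the young libraries. Setting the aged vehicle libraries of batch 2 against young muscle turned the age difference of Smad3 to 0.59 (adjusted p = 0.0497), and aged vehicle of both batches gave -0.05 (adjusted p = 0.939). With the batch 2 libraries in place, Tgfb2 (1.09, adjusted p = 0.00538), Tgfb3 (0.51, adjusted p = 0.0310) and Smad4 (0.58, adjusted p = 0.0453) also passed, where 1679 of all genes did (14.1%). In that setting age and batch cannot be told apart.

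**Figure D3:**
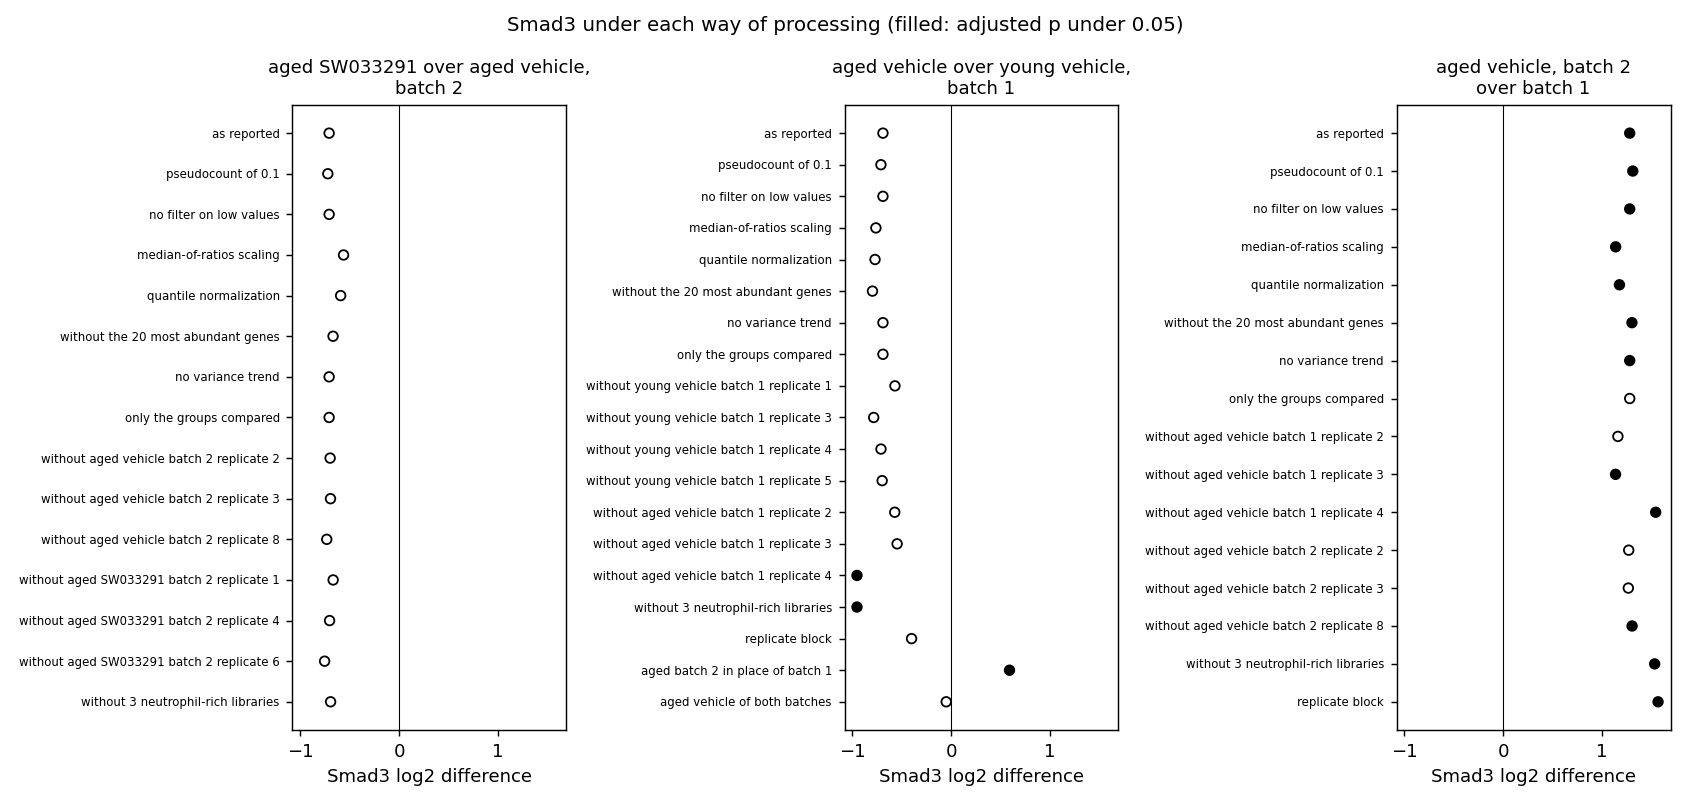
Log2 difference of Smad3 (horizontal axis) under each way of processing or choosing libraries (rows), with filled points past an adjusted p of 0.05. The sign was negative in 15 of 15 fits for SW033291 over vehicle, negative in 18 of 19 for aged over young, and positive in 16 of 16 for batch 2 over batch 1.

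The age and SW033291 comparisons used different libraries, so their difference could be tested. Of the 10 genes, Tgfb2, Tgfb3, Tgfbr1, Smad2 and Smad4 had a higher mean in aged than in young muscle and a lower mean with SW033291 than with vehicle. Of all genes, 61.2% had a difference above 0 with age and 71.1% a difference below 0 with SW033291. The share of all genes with both was not counted. Without aged batch 1 replicate 4, the age difference was 0.06 for Tgfbr1 and -0.045 for Smad4. None of the 10 passed an adjusted p of 0.05 for the difference of effects, where 13 of all genes did (0.109%). An unadjusted p under 0.05 occurred in 4 of 10, against 12.8% of all genes. Tgfb3 had a difference of effects of -0.74 (SE 0.21, limma adjusted p = 0.199) and Tgfb2 one of -0.93 (SE 0.30, limma adjusted p = 0.248), beside a median of -0.19 for all genes. Smad3 differed by -0.02 between the effects (95% interval -0.60 to 0.57), and the sign of this value changed with the scaling. Its mean was lower in aged than in young muscle and lower with SW033291 than with vehicle.

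**Figure D4:**
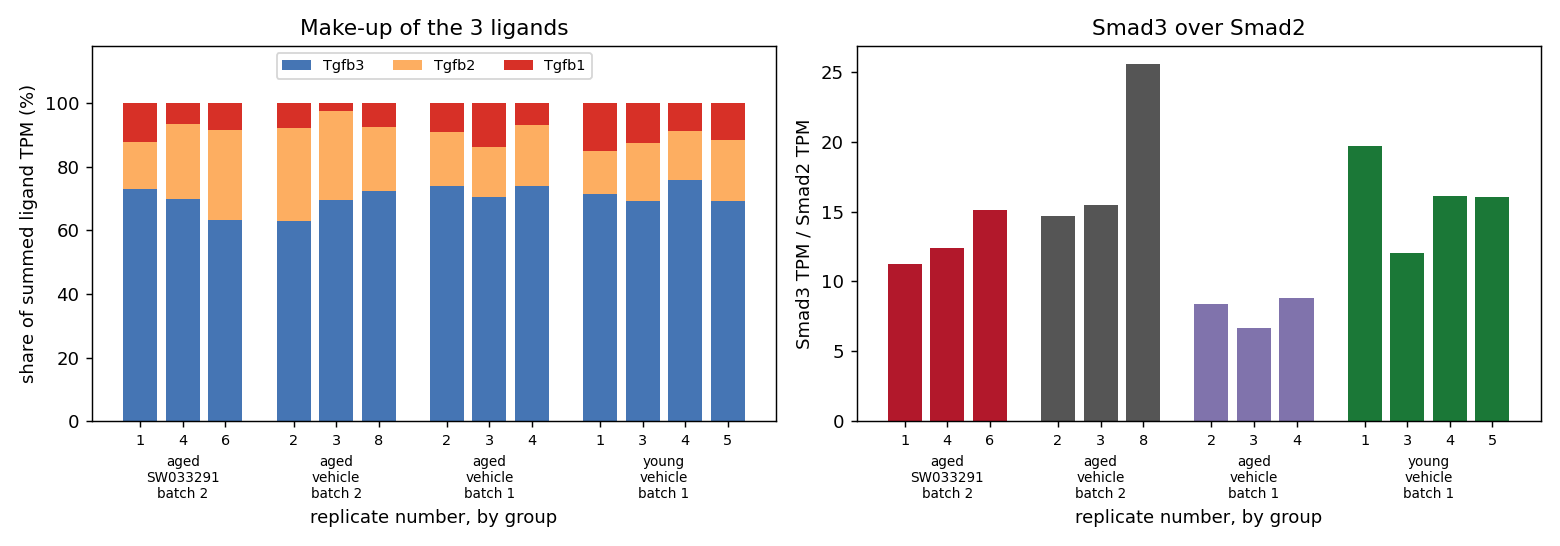
Share of the 3 ligands in their summed TPM (left, percent) and the ratio of Smad3 to Smad2 TPM (right), 1 bar per library. Tgfb3 made up 62.9% to 76.0% of ligand TPM, and the 3 aged vehicle libraries of batch 1 had the 3 lowest Smad3 to Smad2 ratios, 6.68 to 8.81.

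For each gene, the 3 tested genes with the most alike pattern were found by the root mean square difference of standardised log2(TPM + 1) over the 13 libraries, where 0 would be an identical pattern. Smad4 lay closest to Gtdc1 (0.162) and Tgfbr1 to Snx13 (0.1996), Nipbl (0.231) and Ngly1 (0.250). Smad3 lay closest to March5 (0.323), Jarid2 (0.442) and Rhbdl3 (0.488), and Tgfb2 to Arfgef2 (0.330) and Herc2 (0.338). The row of March5, a mitochondrial ubiquitin ligase, is one whose name a spreadsheet had turned into a date. Tgfb1 and Smad7 had no gene closer than 0.410 and 0.445. These values describe the 13 libraries, which share groups and batches. Tgfbr1 stood at 23.4 TPM in aged vehicle batch 1 replicate 4 and at no more than 15.7 TPM in any other library. The part of that library in the matches of Tgfbr1 was not tested.

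Further genes of the pathway were counted in 5 lists written from general knowledge. Earlier results of these data were known then, so the counts are descriptive and no independent test of the pathway. The list of genes induced through Smad2 and Smad3 also holds Smad7, 1 of the 10 genes. It shares Pmepa1 and Skil with the list of Smad partners and regulators. With age, 0 of 15 tested genes of latency and activation, 0 of 8 co-receptors and binding proteins, 0 of 18 Smad partners and regulators, 0 of 8 kinases and adaptors outside the Smad branch, and 4 of 23 genes known to be induced through Smad2 and Smad3 passed the test. Of all genes, 44 (0.37%) rose and 10 (0.0842%) fell, and with median-of-ratios scaling 36 rose and 20 fell. In the list of induced genes 1 rose and 3 fell, and its median difference was -0.26, beside 0.06 for all genes. The members that fell were collagen genes: Col1a2, Col1a1 and Col3a1, the last of which was named after its values were seen. Cdkn1a, the gene of the cyclin-dependent kinase inhibitor p21, which responds to many signals besides TGF-beta, rose by 1.77 (SE 0.26, limma adjusted p = 0.00890).

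Col1a2, a chain of collagen I, had 11.3 to 21.4 TPM in aged muscle and 61.5 to 67.1 TPM in young muscle, and fell by 1.93 on the log2 scale (SE 0.30, limma adjusted p = 0.0122). Its call was lost without aged batch 1 replicate 2 (adjusted p = 0.0688). Col1a1 fell by 2.17 (SE 0.36, limma adjusted p = 0.0155), with an adjusted p of 0.0621, 0.0669 and 0.0815 without young replicate 1, young replicate 5 and aged replicate 2, and Col3a1 fell by 1.96 (limma adjusted p = 0.0314) with an adjusted p of up to 0.106 when a library was left out. The call of Col3a1 was lost without young replicate 1, 3 or 5 or aged replicate 2 or 3. With no filter on low values Col1a1 and Col3a1 did not pass (adjusted p = 0.0595 and 0.0922), nor did Col1a1 without the 3 libraries rich in neutrophil transcripts (0.0557). Beside these collagens, summed TPM of 9 fibro-adipogenic markers lay between 317 and 543 in aged muscle and between 536 and 819 in young muscle, and that of 6 tenocyte markers, Fmod among them, between 71.1 and 121 TPM in aged and between 182 and 250 TPM in young muscle, with all markers above 0 in each of these libraries. The part of these cell types in the collagen values was not tested.

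Fmod, which encodes the small proteoglycan fibromodulin and is also one of the tenocyte markers, had 29.0 to 71.6 TPM in aged muscle and 87.1 to 151 TPM in young muscle. The 5 other tenocyte markers summed to between 31.05 and 49.4 TPM in aged and between 83.9 and 104 TPM in young muscle. The log2 difference of Fmod was -1.33 (SE 0.27, limma adjusted p = 0.0520), and it passed with median-of-ratios scaling (0.0478), with quantile normalization (0.0325), without the 20 most abundant genes (0.0378) and without aged batch 1 replicate 3 (0.0154). Bmp1, a protease of the matrix and of latent TGF-beta complexes, differed by -0.77 (adjusted p = 0.144), and passed without aged batch 1 replicate 3 (0.0279). With aged vehicle of batch 2 and of both batches, Fmod (0.0325 and 0.0188) and Bmp1 (0.0478 and 0.0444) also passed, both lower in aged muscle. Of all genes, 14.1% and 2.50% passed in those settings. With batch 2 alone, age and batch cannot be told apart. Named by the same rule were the Smad corepressor Ski (-0.40), the Smad-inhibiting membrane protein gene Pmepa1 (-0.45), Mmp2 (-0.63) and Itgb5 (0.21). Bgn and Dcn, which encode the TGF-beta-binding proteoglycans biglycan and decorin, differed by -0.34 and -0.39. The Smad-directed deubiquitinase Usp15 (0.30), the kinase Map3k7 (0.30), the adaptor Traf6 (0.22) and the GTPase Rhoa (0.10) had adjusted p-values of 0.670 to 0.816.

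With SW033291, none of the tested genes in any of the 5 lists passed. List medians were -0.24 for latency and activation, -0.31 for co-receptors, -0.29 for Smad partners, -0.38 for induced genes and -0.21 for kinases, beside -0.13 for all genes. Thbs1, which encodes thrombospondin 1, an activator of latent TGF-beta, averaged 1.47 ± 0.15 TPM with SW033291 and 3.21 ± 1.17 TPM with vehicle (log2 difference -0.73, SE 0.25, limma adjusted p = 0.418). Its groups did not overlap, but the highest treated library, at 1.63 TPM, was close to the lowest vehicle library, at 1.87 TPM. Of all genes, 15.1% did not overlap with SW033291 lower. Itgb5 (-0.30) and the protease gene Furin (-0.35) had smaller differences. Fmod averaged 33.2 ± 10.3 TPM with SW033291 and 56.9 ± 7.19 TPM with vehicle (-0.79, SE 0.29, limma adjusted p = 0.418), beside the 5 other tenocyte markers, which summed to 64.05, 37.2 and 31.9 TPM with SW033291 and to 58.2, 52.02 and 55.7 TPM with vehicle. Tgfbrap1 differed by -0.36, between -0.45 without aged vehicle batch 2 replicate 2 and -0.23 without aged vehicle batch 2 replicate 3. Dcn differed by -0.44, between -0.68 without aged SW033291 replicate 1 and -0.15 without aged SW033291 replicate 6.

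Among Smad regulators, the inhibitory Smad6 averaged 1.15 ± 0.57 TPM with SW033291 and 2.60 ± 1.03 TPM with vehicle (log2 difference -0.73, SE 0.27, limma adjusted p = 0.418), and the groups overlapped. The Smad anchor gene Zfyve9 differed by -0.32, between -0.45 without aged vehicle batch 2 replicate 8 and -0.16 without aged vehicle batch 2 replicate 3. The ubiquitin ligase gene Nedd4l differed by -0.41, between -0.54 without aged SW033291 replicate 1 and -0.19 without aged SW033291 replicate 4. Among kinases, Mapk14, which encodes p38 alpha, averaged 108 ± 4.58 TPM with SW033291 and 128 ± 4.33 TPM with vehicle (-0.24, SE 0.09, limma adjusted p = 0.418). With SW033291, the adaptor genes Traf6 (-0.57) and Tab2 (-0.41) of the same branch did not pass. In the batch comparison Mapk14 was the one gene of these lists that passed, higher by 0.49 in batch 2 (adjusted p = 0.0172). The induced genes Bhlhe40 (-0.47), Cilp (-0.48) and Timp1 (-1.14) had adjusted p-values of 0.418, 0.490 and 0.5001, and Timp1 was at 0 TPM in at least 1 treated library. Timp1 lay between -1.84 without aged vehicle batch 2 replicate 3 and -0.59 without aged vehicle batch 2 replicate 2 or aged SW033291 replicate 6, and Cilp between -0.67 without aged SW033291 replicate 4 and -0.26 without aged SW033291 replicate 6.

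**Figure D5:**
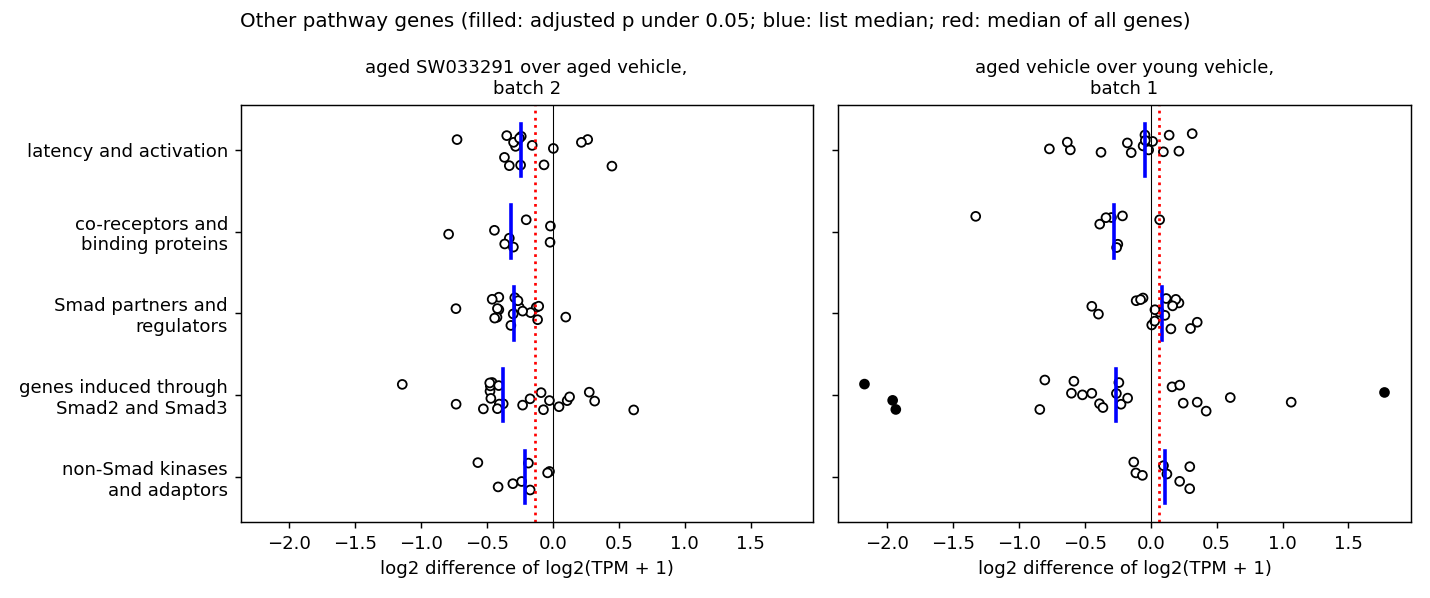
Log2 difference of log2(TPM + 1) (horizontal axis) of each tested gene in the 5 pathway lists (rows, points spread vertically for legibility), for SW033291 over vehicle and for aged over young, with list medians in blue and the median of all genes in red. Filled points, 1 higher and 3 lower, occurred for age among the induced genes.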

How the data were processed

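RNA of 13 quadriceps libraries was measured after preparation with a TruSeq RNA v2 kit, which does not mark strand, so reads of Smad3, Tgfb2, Tgfbr1, Tgfbr2, Tgfbr3 and Smad7 cannot be told apart from those of genes that overlap them in the RefSeq annotation. Per the submitters' processing notes, the tools included STAR, RSEM, DESeq2 and DESeq, with mm9 as the genome build and versions not given in the sources used here. In the deposited table the authors gave TPM for 24015 genes, with no read counts, so depth and counting error are unknown. Per the file headers, 2 further deposited tables, for age and for SW033291, give for each gene the log2 fold change and its error, the test statistic (a score), the p-value (with adjusted values for age) and the signal as mean normalised counts. Which libraries entered them is not stated in the labels.

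In the TPM table as deposited, names and values were out of register. After 27 names turned into dates were restored, all names were sorted in byte order, capitals first, and put back on the rows. The Spearman correlation between mean TPM and the mean normalised count of the SW033291 table was then 0.960 across 23988 genes, against -0.018 as deposited. Over 6361 genes with a mean normalised count of 50 or more, the Pearson correlation of log2 differences was 0.928, against -0.012 as deposited, and 0.090 and 0.087 after a shift by 1 place. Genes are not independent replicates, and every value rests on this order.

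A linear model of log2(TPM + 1) on group was fitted to all 13 libraries in R 4.3.3 (limma 3.58.1, variance trend on). It covered the 11876 genes that reached 1 TPM in 3 or more libraries. Fold changes on this scale understate changes of low genes. Benjamini-Hochberg adjustment ran over all tested genes in each comparison, with a threshold of 0.05. Sums and ratios of members were compared with exact permutation tests in scipy 1.17.1. The script was tested on simulated data. The members and lists were chosen with earlier results of these data known. Besides the members, the text names from each list up to 3 genes of lowest p in the age and SW033291 comparisons. Alternatives were another pseudocount (0.1), no filter, median-of-ratios scaling, quantile normalization, removal of the 20 most abundant genes, no variance trend, the compared groups alone, a replicate block, other aged libraries, and leaving out single libraries or the 3 rich in neutrophil transcripts.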

Additional observations from a re-analysis of the deposited data

Results flagged for a closer look

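Of 38 quantities examined in the group of 4 young libraries, 1 had a library far from the others by Dixon's test at the 95% level, which flags about 1 in 20 such groups by chance. Zfyve9, which encodes an anchor protein for Smad2 and Smad3, stood at 41.95 TPM in young vehicle replicate 4 and at 37.3 to 37.9 TPM in the other 3 young libraries.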

How the results depend on the processing

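Over 70 values of single genes, 1150 recomputed values under the alternatives gave 1055 with the same direction and side of the threshold, 13 no longer past it, 25 newly past it and 57 with the other sign. The cause of these shifts was not tested. For age, the sign changed for Tgfb1 with median-of-ratios scaling (-0.050), quantile normalization (-0.065), without the 20 most abundant genes (-0.078), with aged vehicle of batch 2 (-0.38) and of both batches (-0.19). It changed with those aged libraries for Tgfbr2 (0.21 and 0.083) and Tgfbr3 (0.55 and 0.26), and with batch 2 for Smad3 (0.59). Without the 3 libraries rich in neutrophil transcripts it changed for Tgfbr3 (0.031), Smad4 (-0.045), Map3k7 (-0.042) and Traf6 (-0.055). For SW033291, Smad7 changed to 0.011, 0.027 and 0.17 with median-of-ratios scaling, quantile normalization and without those 3 libraries. For batch, Tgfbr1 changed to -0.036 with quantile normalization and Smad2 to -0.0081 and -0.026 with both scalings. The difference of effects of Smad3 changed to 0.20, 0.18, 0.13 and 0.26 with both scalings, without the 20 most abundant genes and without those 3 libraries.

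Leaving out single libraries gave, for age, -0.26 to 0.16 for Tgfb1, -0.14 to 0.077 for Tgfbr2, -0.11 to 0.031 for Tgfbr3, -0.045 to 0.34 for Smad4, -0.74 to 0.015 for Dcn, -0.042 to 0.47 for Map3k7 and -0.055 to 0.38 for Traf6. For SW033291 it gave -0.24 to 0.43 for Tgfb1 and -0.29 to 0.22 for Smad7. For batch it gave -0.66 to 0.017 for Tgfb1, -0.11 to 0.60 for Tgfbr1 and -0.025 to 0.31 for Smad2. For the difference of effects it gave -0.16 to 0.24 for Smad3, -0.12 to 0.39 for Smad7 and -0.25 to 0.43 for Tgfb1.

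Genes called with age numbered 27 with no filter, 31 with no variance trend, 24 with the compared groups alone, 1679 with aged vehicle of batch 2, 297 with both batches and 19 to 92 without single libraries. Without the 3 libraries rich in neutrophil transcripts, 1 member was called with age, where 71 of all genes were (0.598%). Members called with age numbered 4 with aged vehicle of batch 2 and 0 to 1 without single libraries. The split of age calls was 44 higher and 10 lower, 36 and 20 with median-of-ratios scaling, 41 and 30 with quantile normalization and 35 and 28 without the 20 most abundant genes. Calls with SW033291 numbered 4 with a pseudocount of 0.1, 1 with no variance trend, 4 without those 3 libraries and 0 to 1 without single libraries. For batch, 144 genes with median-of-ratios scaling, 98 with quantile normalization (53 higher and 45 lower), 112 with no variance trend, 1 with the compared groups alone, 1037 without those 3 libraries and 18 to 1643 without single libraries were called, and 0 members with the compared groups alone and 0 to 4 without single libraries. For the difference of effects, which uses all 4 groups, 1 gene with no filter, 0 with both scalings, without the 20 most abundant genes and with no variance trend, 5 without those 3 libraries and 0 to 31 without single libraries were called.

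Replicate numbers were shared by few libraries, and deviations from the group means had correlations of 0.171 and 0.040 for aged and young replicates 3 and 4, and of -0.147 and -0.060 for replicates 2 and 3 of both batches, so the numbers were not taken as pairs. With a replicate block, 4 of all genes were called with age (0.0337%) and 2447 with batch (20.6%). Of the batch calls, 4 were members (Tgfb2, Tgfbr1, Smad3 and Smad4). The age values of Tgfbr2 and Bgn changed to 0.046 and 0.012 with the block. The age calls of Cdkn1a, Col1a1, Col1a2 and Col3a1 were lost with the block (adjusted p of 0.133, 0.517, 0.459 and 0.603). With 3 or 4 libraries a group, the exact tests could not pass 0.05.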
